A study of Mus musculus with 14 samples.

Results

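The 9 guide strands described here are the 5′ products (5p) of the hairpins of let-7a, let-7b, let-7c, let-7d, let-7e, let-7f, let-7g, let-7i and miR-98, chosen by name from the tables of miRNA counts. All 9 were listed both for whole tissue, among 900 names, and for epithelial cells, among 677 names, and they make up 9 of the 999 names found in either table. The libraries came from the epididymis, the coiled duct in which spermatozoa mature as they pass through its caput, corpus and cauda regions, of male Swiss mice aged 8 weeks whose vessels had been perfused with PBS. Whole tissue libraries (3 from caput, 2 from corpus and 3 from cauda) were made from the dissected regions of several pooled mice, with muscle, vessels and luminal content. Epithelial cell libraries (2 from each region) were made from larger pools, by washing out sperm, digesting with trypsin and collagenase, straining, incubating in culture plates and keeping the cells in suspension. The study's sources call the replicates biological in some places and technical in another, and state duplicates. The paper's methods also describe the libraries as analysed in triplicate. The p-values here therefore measure the spread between the libraries given, which may be partly technical.

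The let-7 family is among the best known groups of animal miRNAs. A guide strand is the arm of a hairpin that is loaded into an Argonaute protein, where it pairs with target mRNAs mainly through its seed, and the other arm, the passenger, is mostly degraded. let-7 guides are abundant in differentiated tissues, repress growth genes such as Hmga2, Lin28 and Ras, and are themselves held back by LIN28 proteins in immature cells, while miR-98 is counted in the family because it carries the same seed.

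All 9 members were matched by name to RefSeq mature sequences (GRCm38.p6), and each was 22 bases long. They are shown because the whole comparison below is between molecules that share a seed and differ at 1 to 6 bases in all 36 pairs. Capitals mark the seed, bases 2 to 8, in each sequence, written 5′ to 3′.
let-7a-5p: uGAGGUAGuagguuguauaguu
let-7b-5p: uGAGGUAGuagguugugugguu
let-7c-5p: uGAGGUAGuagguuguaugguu
let-7d-5p: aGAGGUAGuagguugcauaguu
let-7e-5p: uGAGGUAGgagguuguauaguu
let-7f-5p: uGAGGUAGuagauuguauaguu
let-7g-5p: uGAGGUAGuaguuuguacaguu
let-7i-5p: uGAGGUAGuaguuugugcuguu
miR-98-5p: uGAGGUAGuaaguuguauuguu

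The seed GAGGUAG was the same in every member, so all 9 fall in 1 seed group. Counted from the 5′ end against let-7a-5p, let-7c-5p differed at 1 base (A19G) and let-7b-5p at the same base and 1 more (A17G). let-7e-5p carried U9G and let-7f-5p G12A. let-7d-5p was the member with a different first base (U1A), and it also held U16C. let-7g-5p and let-7i-5p shared G12U and U18C, and let-7i-5p held A17G and A19U in addition. miR-98-5p differed by G11A and A19U. let-7k was the only other name in either table matched to a sequence with this seed, and it reached at most 2.99 CPM in whole tissue (CPM, counts per 1000000 with library sizes adjusted by the TMM method), and was not in the epithelial table. The matched set covered 755 of 900 names for whole tissue and 513 of 677 for epithelial cells. let-7j, which differs inside the seed (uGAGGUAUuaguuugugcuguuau), lay between 91.3 and 122.5 CPM in whole tissue.

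The near identity of these molecules bears on how well the counts tell them apart. The deposited values contain fractions, which are taken here as reads shared out between miRNAs, although the sources used here do not say how they arose. Fractions occurred for let-7a-5p, let-7b-5p, let-7c-5p, let-7g-5p and let-7i-5p and in 0 libraries for let-7d-5p, let-7e-5p, let-7f-5p and miR-98-5p. The first 3 of these have their first 16 bases in common, as do let-7g-5p and let-7i-5p, whereas no pair that includes let-7d, let-7e, let-7f or miR-98 shares more than 11. let-7a-5p and let-7c-5p have 18 leading bases in common and are told apart by the 1 base at position 19, so their values rest on reads that reach it.

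Whole tissue libraries held 1243398 to 2135501 counts and epithelial libraries 89039 to 362867, with the corpus epithelial libraries the shallowest (127111 and 89039). The lowest count of any member was 92, for miR-98-5p in a corpus epithelial library. The marker miRNAs listed for epithelium (6 of 6 detected in every group) summed to 21881 to 23681 CPM in caput tissue and 8184.9 to 9893.4 in cauda tissue. In epithelial cells they went the other way, from 26042 to 28510 in caput to 38705 to 40513 in corpus and 33642 to 41128 in cauda libraries. Markers of smooth muscle (4 of 4 detected) summed to 53228 to 65976 CPM in caput tissue and 223160 to 249090 in cauda tissue. They were abundant in the libraries labelled epithelial as well, at 144530 to 195710 CPM in caput, 210040 to 212230 in corpus and 158220 to 336800 in cauda libraries. From caput to cauda tissue, leukocyte markers (5 of 5) went from 966.09 to 1160.3 to 1948 to 1993.3 CPM, red blood cell markers (4 of 4) from 87.267 to 97.767 to 846.36 to 1323.8, and germ cell markers (10 of 10) from 4107.5 to 5158.5 to 9606.4 to 12656, each as the lowest and highest library. Endothelial markers (2 of 2) lay between 13945 and 18250 CPM in all tissue libraries. In epithelial cells endothelial markers summed to 25517 to 35754 CPM in caput, 13092 to 14322 in corpus and 46640 to 56669 in cauda libraries, red blood cell markers to 381.79 to 472.99, 206.91 to 434.03 and 1588.1 to 2965.8, leukocyte markers to 470.39 to 865.07, 510.63 to 705.94 and 1380.3 to 1586.2, and germ cell markers (9 of 10 in the caput, where miR-880-3p was at 0) to 3648.8 to 4207.1, 2445.9 to 3825.9 and 2517.1 to 5936.9. The part of these cell types in the results that follow was not tested, and in bulk RNA fewer cells of a type and less of a miRNA per cell cannot be told apart.

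In whole tissue the 9 members together took 7.27% ± 0.30 of all caput counts (SD, n = 3), 7.91% ± 0.21 of corpus counts (n = 2) and 6.47% ± 0.44 of cauda counts (n = 3). In epithelial cells they took 10.2% ± 0.11, 10.5% ± 0.73 and 7.63% ± 1.19 in the same order of regions (n = 2 each). Every cauda library lay below every caput and corpus library of its preparation. In TMM CPM, the scale used for the tests, the 3 tissue regions summed to 84347 ± 4654, 72823 ± 2842 and 58879 ± 3484. The epithelial sums were 111191 ± 7101, 101114 ± 1935 and 72050 ± 547 CPM. The order of caput and corpus thus depends on the scaling, while the cauda had the lowest sum on both scales.

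All members have the same length, so their levels, given in TMM CPM, need no correction for length. Whether libraries captured each sequence equally was not tested, and the order below is an order of counts. In caput tissue let-7f-5p led at 36318 ± 2141 CPM (SD, n = 3), followed by let-7c-5p at 22379 ± 1337 and let-7a-5p at 9454 ± 568. let-7g-5p (6297 ± 289) and let-7i-5p (3581 ± 266) came next, and let-7b-5p, miR-98-5p, let-7d-5p and let-7e-5p lay between 1257 and 2049 CPM. Of the 8 pairs of neighbours in this order, 1 overlapped between libraries, let-7d-5p with let-7e-5p. let-7f-5p, let-7c-5p and let-7a-5p kept their order at the top in corpus and cauda tissue. In the corpus let-7b-5p and miR-98-5p overlapped, and in the cauda let-7g-5p and let-7i-5p did.

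Epithelial cells differed at the top of this order. In both caput epithelial libraries let-7c-5p was the most abundant member, with 49121 and 43080 CPM, ahead of let-7f-5p with 29910 and 29206. In the corpus and cauda epithelial libraries let-7f-5p led again (32780 ± 1100 and 25678 ± 15 CPM, against 29038 ± 1898 and 18672 ± 641 for let-7c-5p). Further down, let-7g-5p and let-7i-5p overlapped in the caput and let-7a-5p and let-7i-5p in the corpus, and 0 of 8 neighbours overlapped in the cauda. miR-98-5p was the scarcest member in all 3 epithelial groups.

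**Figure D1:**
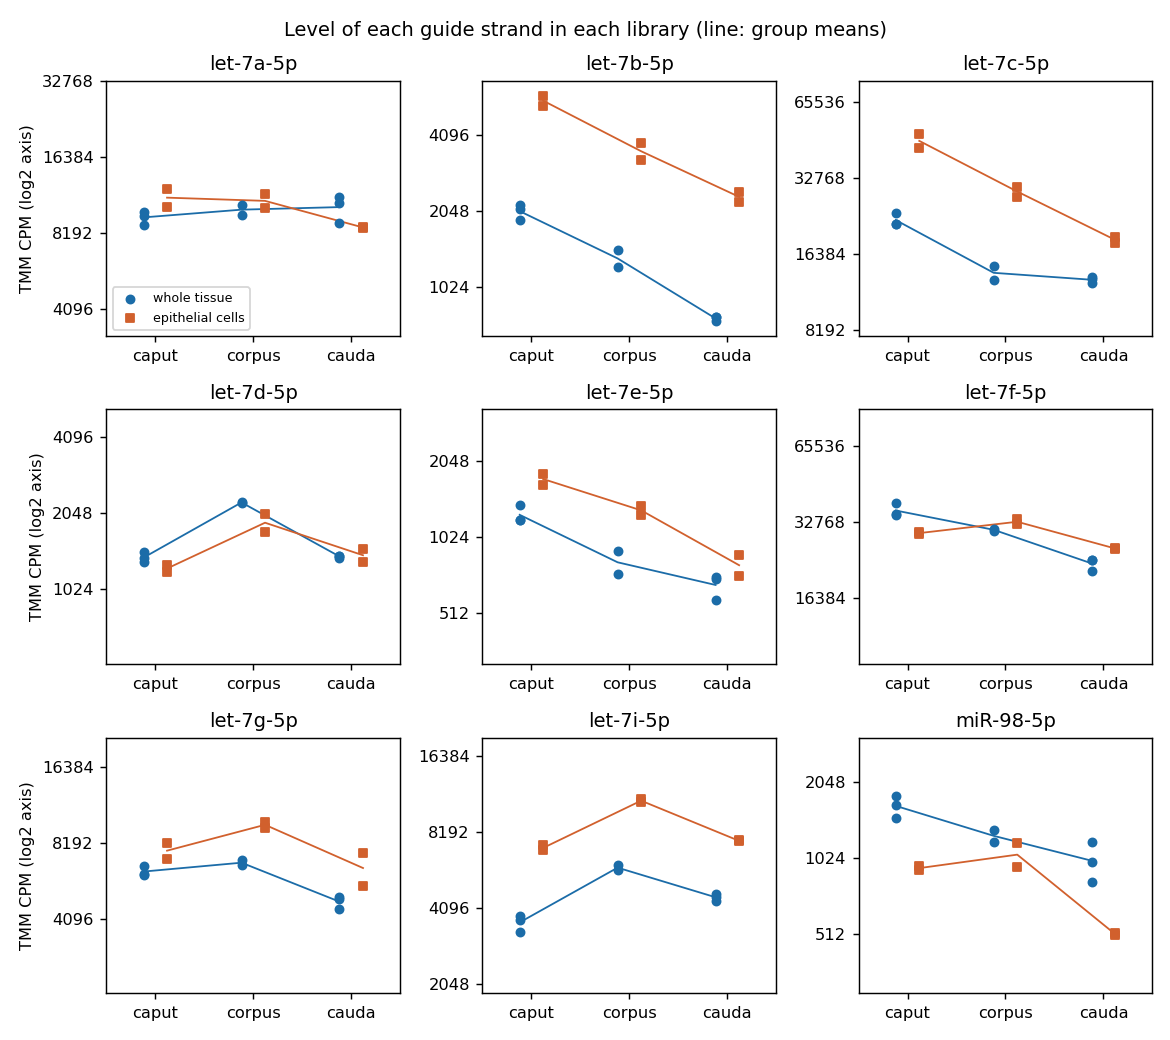
Level of each of the 9 guide strands in each library, in TMM CPM on a log2 axis, by region, with whole tissue as blue circles (3, 2 and 3 libraries) and epithelial cells as orange squares (2 per region) and lines through group means. let-7b-5p, let-7c-5p and let-7e-5p step down from caput to cauda in both preparations, and let-7d-5p and let-7i-5p have their highest group mean in the corpus.

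The make-up of the family, as each member's share of the 9 members' counts in a library, needs no scaling between libraries. let-7f-5p held 42.9% to 43.2% of the 9 members' counts in caput tissue, 41.2% and 42.5% in corpus tissue and 37.6% to 38.5% in cauda tissue. Its share went the other way in epithelial cells, with 25.7% and 27.5% in caput libraries, 31.2% and 33.6% in corpus libraries and 35.9% and 35.4% in cauda libraries. The let-7c-5p share was 42.3% and 40.6% in caput epithelial cells and 26.7% and 25.2% in the cauda. The same share in tissue was 26.4% to 26.7% for caput, 19.7% and 18.2% for corpus and 21.6% to 22.9% for cauda libraries, so that no regions overlapped.

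let-7i-5p took 4.0% to 4.6% of the family in caput tissue and 7.5% to 8.5% in every corpus and cauda tissue library. In epithelial cells the same share was 5.9% and 6.8% in the caput and 10.4% to 11.1% further along the duct. let-7b-5p went from 2.43% ± 0.13 to 1.31% ± 0.10 of the family between caput and cauda tissue and from 5.05% ± 0.01 to 3.24% ± 0.23 in epithelial cells. let-7a-5p went from 11.2% ± 0.48 to 17.6% ± 1.16 in tissue and from 10.2% ± 0.47 to 12.0% ± 0.11 in epithelial cells.

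**Figure D2:**
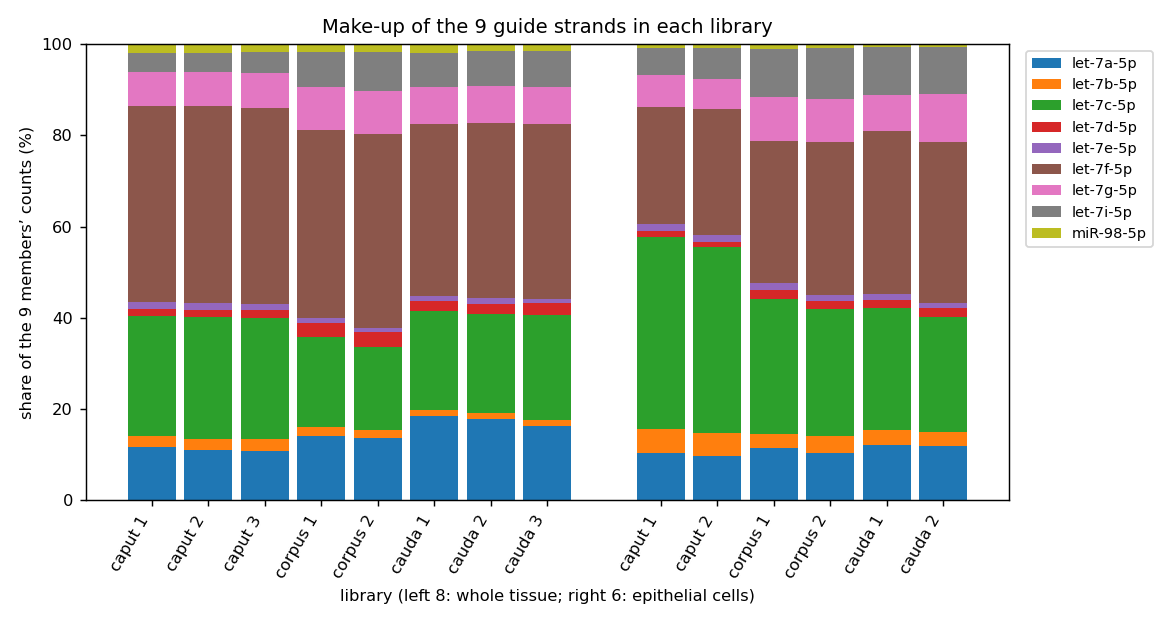
Share of each member, in percent of the 9 members' summed counts, in each of the 14 libraries (bars; left 8 whole tissue, right 6 epithelial cells). let-7f-5p is the widest band in every whole tissue library (37.6% to 43.2%), and let-7c-5p is the widest in both caput epithelial libraries (42.3% and 40.6%).

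The comparison of caput and cauda asks how the guides differ between the ends of the duct. In whole tissue let-7b-5p measured 1889, 2163 and 2094 CPM in caput, 1433 and 1229 in corpus and 749.9, 778.5 and 780.3 in cauda libraries. The 3 regions did not overlap, and the member fell from caput to cauda by 1.41 on the log2 scale (SE 0.09, 2.66-fold, limma FDR 4.09e-07). It was the only 1 of the 9 members that passed both the FDR below 0.05 and the 2-fold limit, where 53.2% of the 355 miRNAs tested were called, 25.4% as lower. By the FDR alone 7 members changed, beside 79.2% of all miRNAs tested. Of these 6 were lower, beside 41.4%, and 1 was higher, beside 37.7%. The libraries of caput and cauda did not overlap for 7 members, beside 80.8%. The median log2 change was -0.70 over the members and -0.05 over all miRNAs tested.

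let-7c-5p, which shares 1 of its genomic clusters with let-7b-5p, measured 21571, 23922 and 21644 CPM in caput tissue and 13282, 13068 and 12594 in cauda tissue. Every cauda library lay below every caput library, with a log2 change of -0.78 (SE 0.08, limma FDR 8.26e-06). let-7e-5p measured 1198, 1380 and 1194 CPM in the caput and 711.3, 700.6 and 576.6 in the cauda, a log2 change of -0.92 (SE 0.12, limma FDR 4.88e-05). let-7f-5p, miR-98-5p and let-7g-5p fell as well, by 0.70, 0.73 and 0.40 on the log2 scale (limma FDR 1.28e-05, 6.18e-04 and 8.84e-04). The let-7g-5p call depended on scaling: its log2 change was -0.05 with a limma FDR of 0.57 when library totals replaced TMM, which moved the median of all miRNAs from -0.05 to 0.30.

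On the TMM scale let-7i-5p was the 1 member that rose from end to end of the duct in tissue. It measured 3282, 3672 and 3789 CPM in caput tissue and 4633, 4532 and 4347 in cauda tissue, a log2 change of 0.33 (SE 0.08, limma FDR 0.00335), and all cauda libraries were above all caput libraries. let-7a-5p had a log2 change of 0.13 (95% interval -0.09 to 0.36) and let-7d-5p of 0.02 (-0.15 to 0.18), and neither passed the test. A change of 2-fold lay outside the interval of both. With library totals these values were 0.48 for let-7a-5p (limma FDR 0.00165), 0.36 for let-7d-5p (limma FDR 0.00113) and 0.68 for let-7i-5p, so that all 3 rose on that scale.

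In epithelial cells 3 members were called lower from caput to cauda, let-7b-5p, let-7c-5p and let-7e-5p, where 25.9% of 216 miRNAs tested were called and 12.0% were called lower. By the FDR alone 4 members changed, beside 39.4%, all of them lower, beside 18.5%, and 8 members did not overlap between caput and cauda, beside 74.5%. The median log2 change was -0.39 over the members and 0.00 over all tested. let-7c-5p measured 49121 and 43080 CPM in caput, 30380 and 27696 in corpus and 19126 and 18219 in cauda libraries. The 3 regions were separate and in falling order, and the log2 change from end to end was -1.30 (SE 0.15, 2.46-fold, limma FDR 8.70e-04).

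let-7b-5p measured 5874 and 5353 CPM in caput epithelial cells and 2441 and 2228 in the cauda, a log2 change of -1.26 (SE 0.16, limma FDR 9.07e-04). let-7e-5p measured 1830 and 1656 CPM in the caput and 871.3 and 716.4 in the cauda, a log2 change of -1.13 (SE 0.18, limma FDR 0.00264), and with library totals it was -0.94, short of 2-fold, which left 2 members called, beside 26.9% of all miRNAs on that scale. miR-98-5p fell by 0.87 (SE 0.19, limma FDR 0.0107), short of 2-fold, and its FDR was up to 0.098 when a caput epithelial library was left out. The other 5 members had log2 changes between -0.39 and 0.17 and did not pass the test. With TMM over all rows and with normalization without the members, let-7a-5p passed the FDR downward. There 5 members were lower, beside 24.1% and 23.6% of all miRNAs. Normalization without the members also called miR-98-5p, which made 4 members called, beside 27.8%.

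**Figure D3:**
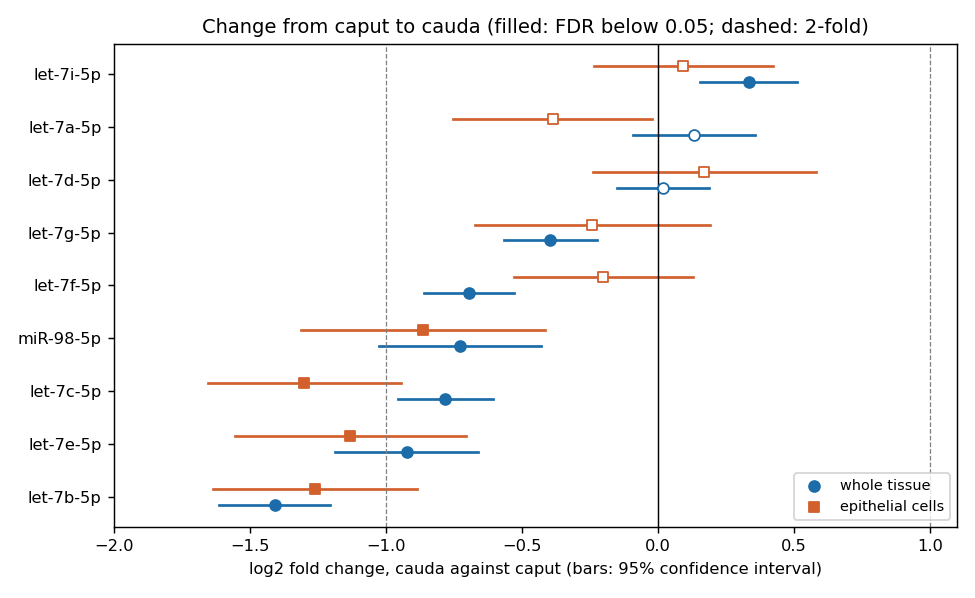
Change from caput to cauda of each member (log2 fold change) with its 95% confidence interval, for whole tissue (blue circles) and epithelial cells (orange squares); filled symbols have an FDR below 0.05 and dashed lines mark 2-fold. let-7b-5p lies beyond 2-fold in both preparations (-1.41 and -1.26), and let-7d-5p and let-7i-5p lie between 0 and 0.33.

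In several members the corpus libraries were the highest. let-7d-5p measured 1309, 1436 and 1360 CPM in caput tissue, 2250 and 2276 in corpus tissue and 1390, 1393 and 1365 in cauda tissue. The corpus libraries stood above all others, with a log2 change of 0.73 from the caput (SE 0.08, limma FDR 5.76e-05) and of -0.71 to the cauda (SE 0.08, limma FDR 7.17e-05). let-7i-5p measured 5751 and 6051 CPM in corpus tissue, above the other regions given earlier, and rose by 0.72 from the caput (SE 0.09, limma FDR 9.81e-05) before it fell by 0.39 to the cauda (SE 0.09, limma FDR 0.00429), a step that missed the FDR without corpus tissue replicate 2 (-0.34, limma FDR 0.0535). Both passed the FDR but not 2-fold in both steps. let-7g-5p had its highest libraries in the corpus too, with 6999 and 6656 CPM against 6093 to 6628 in caput tissue, but its change from the caput did not pass on the TMM scale (0.12, limma FDR 0.26) and passed with library totals (0.45, limma FDR 0.00108).

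Across the 9 members, 0 passed both limits from caput to corpus in tissue, where 29.9% of 334 miRNAs were called, and 7 passed the FDR alone, beside 59.3%. Those 7 were let-7d-5p and let-7i-5p upward, beside 26.6%, and let-7b-5p, let-7c-5p, let-7e-5p, let-7f-5p and miR-98-5p downward, beside 32.6%. Here 8 members did not overlap between the regions, beside 74.9%. The downward values were -0.63, -0.70, -0.63, -0.25 and -0.39 on the log2 scale. With library totals, which moved the median of all miRNAs from -0.05 to 0.28, let-7f-5p turned to 0.08 and miR-98-5p went to -0.06, and let-7e-5p missed the FDR (-0.30, limma FDR 0.0720), as it did without corpus tissue replicate 2 (-0.42). On that scale let-7a-5p (0.44, limma FDR 0.00905) and let-7g-5p rose as well, and let-7d-5p and let-7i-5p reached 1.06 each, past 2-fold. The split by the FDR, 2 members higher and 5 lower, thus became 4 higher, beside 40.4% of all miRNAs, and 2 lower (let-7b-5p and let-7c-5p), beside 18.0%. The let-7f-5p call held in 12 of 18 alternatives, and was lost also with DESeq2's size factors and without caput tissue replicate 2 or 3 or either corpus library. That of miR-98-5p held in 8 of 18, and was lost under all 4 other scalings, with the filter lowered to 1 count, and without caput tissue replicate 1 or 2, either corpus library or cauda tissue replicate 2. From corpus to cauda 0 members passed both limits, where 27.3% of 341 miRNAs were called, and 5 passed the FDR alone, beside 54.3%, all of them lower, beside 27.3%. These were let-7b-5p, let-7d-5p, let-7f-5p, let-7g-5p and let-7i-5p, with log2 changes of -0.79 to -0.39. No overlap of the regions was found for 7 members, beside 76.8%.

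The order of steps therefore differed between members in tissue. let-7c-5p changed by -0.70 from caput to corpus (limma FDR 1.15e-04) and by -0.09 from corpus to cauda (95% interval -0.29 to 0.11), while let-7g-5p changed by 0.12 (-0.07 to 0.31) and then by -0.51 (limma FDR 6.81e-04). let-7b-5p fell in both steps, by 0.63 and 0.79.

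In epithelial cells let-7d-5p measured 1279 and 1199 CPM in caput, 2037 and 1726 in corpus and 1311 and 1485 in cauda libraries. The corpus libraries were again the highest, but the log2 change of 0.60 from the caput (SE 0.18) had a limma FDR of 0.051 and the change of -0.43 to the cauda one of 0.16. let-7i-5p measured 6905 and 7228 CPM, then 10695 and 11050, then 7561 and 7511, rose by 0.62 (SE 0.14, limma FDR 0.0180) and fell by 0.53 (SE 0.14, limma FDR 0.0471). The corpus libraries were also the highest for let-7g-5p (9899 and 9396 CPM) and let-7f-5p (32002 and 33558 CPM), whose changes from the caput did not pass (0.34 and 0.15). From caput to corpus 0 of 9 members passed both limits, where 12.2% of 205 were called, and 3 passed the FDR alone, beside 19.0%. let-7i-5p was higher, beside 9.76%, and let-7b-5p and let-7c-5p were lower by 0.67 each, beside 9.27%. The libraries of caput and corpus did not overlap for 7 members, beside 66.3%. Leaving out any 1 of the 4 libraries of these 2 regions took these 3 members over the FDR limit, with limma FDR values of at most 0.216 for let-7b-5p, 0.133 for let-7c-5p and 0.129 for let-7i-5p. With library totals let-7b-5p (-0.51, limma FDR 0.0981) and let-7c-5p (-0.50, limma FDR 0.0565) were lost too and let-7d-5p passed (0.77, limma FDR 0.0383), so that 2 members were higher, beside 12.7% of all miRNAs, and 0 lower, beside 6.83%. The let-7i-5p call was lost with TMM over all rows of the table, where its log2 change was 0.48.

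From corpus to cauda miR-98-5p was called lower in epithelial cells, where 10.9% of 192 miRNAs were called and 4.17% were called lower. It measured 1168 and 939.6 CPM in corpus libraries, against 513.9 and 506.3 in cauda libraries, a log2 change of -1.05 (SE 0.21, limma FDR 0.0210). The call rested on counts of 144 and 92 in the corpus, and it was lost without either corpus library or without caput replicate 2, while the log2 change stayed between -1.19 and -0.88 over all alternatives. By the FDR alone 3 members fell (let-7c-5p by 0.64 and let-7i-5p were the others), beside 13.5% in either direction and 5.73% lower. Under other scalings 2 members fell with library totals (beside 3.65% lower) and 3 with TMM over all rows (4.69%). Normalization without the members gave 5 (6.77%) and DESeq2's size factors 6 (8.33%). The let-7i-5p call was lost in most alternatives, edgeR's test and the replicate block among them. That of let-7c-5p was lost without either caput library, either corpus library or cauda replicate 2 (limma FDR up to 0.221). All 9 members had lower values in both cauda than in both corpus libraries, beside 65.1% of miRNAs without overlap in either direction.

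The ratio of members within a library shows the same shifts without any scaling. let-7c-5p per let-7f-5p was 0.613 to 0.619 in caput tissue, 0.479 and 0.429 in corpus tissue and 0.563 to 0.6001 in cauda tissue. In epithelial cells it was 1.64 and 1.48, then 0.949 and 0.825, then 0.745 and 0.710. The 2 preparations lay far apart in the caput and close in the cauda. let-7c-5p per let-7i-5p went from 5.71 to 6.57 in caput tissue to 2.87 to 2.90 in cauda tissue, and from 7.11 and 5.96 to 2.53 and 2.43 in epithelial cells. The caput libraries of the preparations overlapped in this ratio, and the difference between the 2 changes was not tested.

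**Figure D4:**
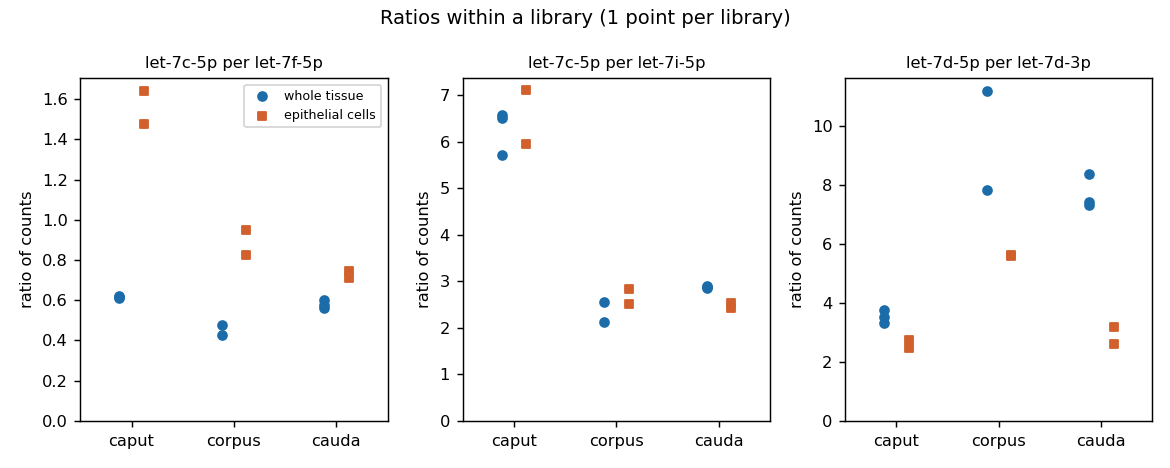
Ratios of counts within each library by region (1 point per library; blue circles whole tissue, orange squares epithelial cells; axes start at 0). let-7c-5p per let-7f-5p is 1.64 and 1.48 in caput epithelial cells against 0.613 to 0.619 in caput tissue, and let-7d-5p per let-7d-3p is above 5 in every corpus library and below 4 in every caput library.

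Whether the change from caput to cauda differed between the preparations was tested as the contrast of the 2 changes in 1 limma fit over all 14 libraries. It passed the FDR for 3 of 9 members, where 32.0% of 194 miRNAs passed, 25.3% as higher and 6.70% as lower. The contrast was -0.47 for let-7c-5p (SE 0.12, limma FDR 0.0110) and -0.47 for let-7a-5p (SE 0.15, limma FDR 0.0273), a more negative change in epithelial cells, and 0.54 for let-7f-5p (SE 0.13, limma FDR 0.00772). The median contrast over all miRNAs tested was 0.38, and it lay between 0.08 and 0.20 under the other scalings. let-7c-5p and let-7a-5p kept their calls and sign under all of those scalings, while let-7f-5p was between 0.25 and 0.38 there with limma FDR values of 0.10 to 0.23. With DESeq2's size factors let-7i-5p passed in its place, so that 3 members passed there as well, beside 21.1% of all miRNAs, and 2 under each other scaling, beside 20.1% to 23.2%. Without either caput epithelial library only 1 of the 9 members passed, beside 17.5% and 26.4%. The let-7a-5p contrast was also lost without caput tissue replicate 3 or cauda tissue replicate 1 or 2 (range -0.88 to -0.41), and that of let-7f-5p without corpus tissue replicate 2 or either cauda epithelial library (range 0.13 to 0.68). Preparation cannot be told apart here from the count table, its list of miRNA names and its depth.

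Within each region, epithelial cells were set against whole tissue in the same fit. The share of the library taken by let-7b-5p was 0.169% to 0.182% in caput tissue and 0.520% and 0.511% in caput epithelial cells. For the corpus it was 0.154% and 0.135% against 0.317% and 0.418%, and for the cauda 0.0820% to 0.0867% against 0.231% and 0.261%. Each epithelial library was above each tissue library of its region. The fitted log2 differences were 1.25 (SE 0.11, limma FDR 7.93e-07), 1.29 (SE 0.14, limma FDR 7.17e-06) and 1.44 (SE 0.13, limma FDR 3.18e-07), which made let-7b-5p the member called in all 3 regions. In the caput 2 of 9 members were called (1 higher and 1 lower), where 37.1% of 194 miRNAs were (15.5% higher and 21.6% lower). The corpus had 1 such member (higher), where 30.4% of miRNAs were called (12.4% higher). The cauda had 2 (1 higher and 1 lower), where 39.7% were called (21.6% higher and 18.0% lower). The other let-7b arm, let-7b-3p, was called lower in epithelial cells in caput (-1.36, limma FDR 1.33e-04) and corpus (-1.30, limma FDR 0.0153). Its corpus value rests on epithelial counts of 5 and 2. In the cauda let-7b-3p did not pass (-0.22, limma FDR 0.525), and let-7d-3p was called higher (1.26, limma FDR 7.21e-05).

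By the FDR alone 6 caput members differed, beside 60.3%, with 3 higher (22.7%) and 3 lower (37.6%). For the corpus 6 did, beside 47.9%, with 5 higher (22.2%) and 1 lower (25.8%). For the cauda 5 did, beside 61.9%, with 3 higher (33.5%) and 2 lower (28.4%). These splits moved with scaling. With library totals they were 6 higher and 1 lower in the caput, beside 33.0% and 26.3% of all miRNAs, 4 and 0 in the corpus, beside 23.2% and 23.7%, and 4 and 1 in the cauda, beside 37.6% and 23.2%.

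miR-98-5p was the second member called in caput and cauda, and it was lower in epithelial cells. It took 0.125% to 0.152% of caput tissue libraries and 0.0841% and 0.0874% of caput epithelial libraries, a fitted log2 difference of -1.02 (SE 0.15, limma FDR 6.56e-05). In the cauda the shares were 0.0890% to 0.129% and 0.0487% and 0.0592%, a fitted difference of -1.11 (SE 0.19, limma FDR 1.37e-04). Both values sat close to the 2-fold limit. Under the other scalings the caput difference was -0.92 to -0.70 and the cauda difference -1.29 to -0.95, all with an FDR below 0.05.

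let-7c-5p was higher in epithelial cells in all regions by the FDR, by 0.83, 0.96 and 0.37 on the log2 scale, and so was let-7i-5p, by 0.77, 0.77 and 0.58. The cauda value of let-7c-5p missed the FDR with DESeq2's size factors, with names matched with an added letter, and without corpus tissue replicate 2 or either cauda epithelial library. The share of let-7c-5p in caput epithelial cells was 4.35% and 4.12% of the library, against 1.85% to 2.01% in caput tissue. In the caput let-7f-5p was lower in epithelial cells by 0.50 and let-7d-5p by 0.35 (limma FDR 2.38e-04 and 0.0115). The let-7f-5p value missed the FDR with library totals. That of let-7d-5p missed it under all 4 other scalings and without caput epithelial replicate 1 or cauda epithelial replicate 2 (range -0.45 to -0.03, limma FDR up to 0.886). The remaining members past the FDR were let-7d-5p (-0.37), let-7e-5p (0.59) and let-7g-5p (0.39) in the corpus, each lost without 1 or other corpus library and holding in 17, 21 and 15 of 24 alternatives, and let-7a-5p (-0.42) in the cauda, lost with library totals.

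The hairpins of these guides lie in several genomic clusters, some of which also hold miR-99, miR-100 or miR-125 hairpins. Positions are those of RefSeq on GRCm38.p6, and host transcripts are from GENCODE on the same build and strand. On chromosome 13 (minus strand), Mirlet7a-1 (48538179 to 48538272), Mirlet7f-1 (48537829 to 48537917) and Mirlet7d (48536012 to 48536114) overlap exons of the noncoding gene 6720427I07Rik. Mirlet7c-2 (85706603 to 85706697) and Mirlet7b (85707319 to 85707403) are on chromosome 15 in exons of the noncoding gene Lncppara, 621 bases apart. Mirlet7c-1 (77599657 to 77599750) is on chromosome 16 in an intron of Mir99ahg, 656 bases from Mir99a. Mirlet7e (17830352 to 17830444) is on chromosome 17 in an intron of Spaca6, between the miR-99b arms and Mir125a.

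On chromosome X, Mirlet7f-2 (151912346 to 151912428) and Mir98 (151913214 to 151913321) lie in an intron of Huwe1, 785 bases apart. Mirlet7g is on chromosome 9 (106178840 to 106178927) in an intron of Wdr82, Mirlet7a-2 is on the same chromosome (41536716 to 41536811) near Mir100, and Mirlet7i is on chromosome 10 (122985640 to 122985724) in an exon of the pseudogene D630033A02Rik. A count of let-7a-5p, let-7c-5p or let-7f-5p adds up hairpins of different clusters, because their guides are identical. The passenger arms differ in sequence between most of these hairpins and were counted under their own names. The exception was let-7a-1-3p and let-7c-2-3p, from chromosomes 13 and 15, which are the same molecule (cUAUACAAucuacugucuuucc) and had equal counts in 8 of 8 tissue and 6 of 6 epithelial libraries.

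In whole tissue 9 of the 12 listed passengers were abundant enough to test. Since let-7a-1-3p and let-7c-2-3p are the same molecule, these are 8 distinct molecules. From caput to cauda 5 of the 8 were called lower, beside 25.4% of all miRNAs, and 0 higher, with a median log2 change of -1.13. With library totals let-7b-3p, let-7e-3p and miR-98-3p were called lower, and the other 2 calls were lost. let-7b-3p measured 243, 274 and 250 CPM in the caput and 74.6, 74.5 and 63.7 in the cauda, a log2 change of -1.85 (SE 0.12, limma FDR 4.25e-07). let-7d-3p measured 374, 381 and 409 CPM in the caput and 188, 167 and 186 in the cauda, a change of -1.11 (SE 0.13, limma FDR 2.77e-05), while its guide changed by 0.02. The other 3 calls were let-7e-3p (-1.35), miR-98-3p (-1.64) and the molecule counted both as let-7a-1-3p and as let-7c-2-3p (-1.16). let-7f-1-3p fell by 0.98 with an FDR of 0.00138, just short of 2-fold.

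let-7c-1-3p and let-7i-3p did not pass, with log2 changes of 0.61 (95% interval -0.07 to 1.30) and -0.35 (-1.01 to 0.32). With library totals let-7c-1-3p passed the FDR upward, short of 2-fold (0.96, limma FDR 0.0147). let-7c-1-3p, the arm that marks the chromosome 16 hairpin, reached at most 21.8 CPM in tissue, whereas let-7c-2-3p, shared with let-7a-1, reached 166 CPM. From caput to corpus 5 of the 8 distinct passengers were called lower, beside 15.9%, and 1 of these, let-7b-3p, was called with library totals. From corpus to cauda 0 were called, beside 27.3%. In epithelial cells 3 distinct passengers could be tested, and 0 were called in any step, beside 12.2% from caput to corpus, 10.9% from corpus to cauda and 25.9% from caput to cauda. From caput to corpus let-7b-3p had a log2 change of -1.77 (limma FDR 0.0508) and let-7a-1-3p of -1.28 (limma FDR 0.0553), and both were called lower with normalization without the members. From corpus to cauda their values were 0.99 (95% interval -0.31 to 2.29) and 0.80 (-0.18 to 1.78). Beside these, let-7a-2-3p, let-7f-2-3p and let-7g-3p reached at most 2.99 CPM in whole tissue. The change from caput to cauda differed between preparations by 1.13 for let-7b-3p (limma FDR 0.0297) and by 1.17 for let-7d-3p (limma FDR 0.00493), where 32.0% of all miRNAs passed. The epithelial changes were -0.78 (95% interval -1.63 to 0.07) and 0.02 (-0.52 to 0.56). Under each other scaling let-7d-3p stayed past the FDR (0.89 to 0.99), while let-7b-3p was lost (0.84 to 0.95, limma FDR 0.0668 to 0.139).

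The number of guide reads per passenger read gives the same arm comparison within a library. For let-7d it was 3.32 to 3.76 in caput tissue, 7.82 and 11.2 in corpus tissue and 7.33 to 8.35 in cauda tissue, so that the caput lay apart from both other regions. Epithelial libraries had 2.48 and 2.76 for caput, 5.58 and 5.63 for corpus and 3.17 and 2.61 for cauda, with the corpus highest and the other regions overlapping. For let-7b it was 7.77 to 8.37, 17.0 and 17.2, and 10.1 to 12.3 in the tissue regions. Epithelial libraries lay above every tissue library, with 60.9 and 38.6 for caput, 80.7 for 1 corpus library and 32.8 and 38.9 for cauda, so that caput and cauda overlapped. These rest on 5 to 43 passenger reads, and the other corpus library had 2, too few for a ratio. For let-7b and let-7d the corpus had the highest mean ratio in tissue, and for let-7d 1 corpus library lay within the cauda range. The miR-98 ratio was 60.8 to 84.3 in caput tissue, 135.5 and 100.5 in corpus tissue and 123.7 to 164 in cauda tissue. The let-7e and let-7i ratios in cauda tissue (39.1 to 126.4 and 216.9 to 428.6) spanned the corpus values (120.5 and 74.2, 366.6 and 318.1). These tissue ratios of miR-98, let-7e and let-7i rest on 9 to 44 passenger reads.

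Of the 11 neighbours from the miR-99, miR-100 and miR-125 families, 10 could be tested in whole tissue. From caput to cauda 4 were called lower, beside 25.4% of all miRNAs, and 0 higher, and the same counts held under the other scalings. All 4 come from the let-7e cluster on chromosome 17. miR-99b-5p measured 17598, 16896 and 22481 CPM in the caput and 5866, 4985 and 6113 in the cauda, a log2 change of -1.74 (SE 0.12, limma FDR 5.60e-07). miR-125a-5p changed by -1.40 (SE 0.12, limma FDR 2.07e-06), miR-99b-3p by -1.72 and miR-125a-3p by -1.94. Beside them stand -0.92 for let-7e-5p and -1.35 for let-7e-3p, so every tested product of this cluster was lower in the cauda.

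The clusters that hold let-7c-1 and let-7a-2 showed other values. miR-99a-5p had a log2 change of 0.32 (95% interval 0.01 to 0.63, limma FDR 0.054) and miR-125b-5p, which comes from both clusters, of 0.06 (-0.13 to 0.25). miR-100-5p changed by -0.39 (limma FDR 0.00916). In epithelial cells 0 of 8 tested neighbours were called from caput to cauda, beside 25.9% of all miRNAs, and 1 was called higher with library totals. By the FDR alone miR-99a-5p rose by 0.93 (limma FDR 0.00866) and miR-99b-5p fell by 0.69 (limma FDR 0.0298), beside -1.13 for let-7e-5p. The contrast between preparations passed the FDR for 3 of 8 neighbours, beside 32.0% of all miRNAs. With DESeq2's size factors, TMM over all rows or normalization without the members it passed for 2, beside 20.1% to 21.1%. Its values were 1.105 for miR-99b-5p (limma FDR 0.00251), 1.08 for miR-125a-5p (limma FDR 0.00361) and 0.83 for miR-100-5p (limma FDR 0.0296). For let-7e-5p the contrast was -0.15 (95% interval -0.58 to 0.28), beside the median of 0.38 over all miRNAs.

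**Figure D5:**
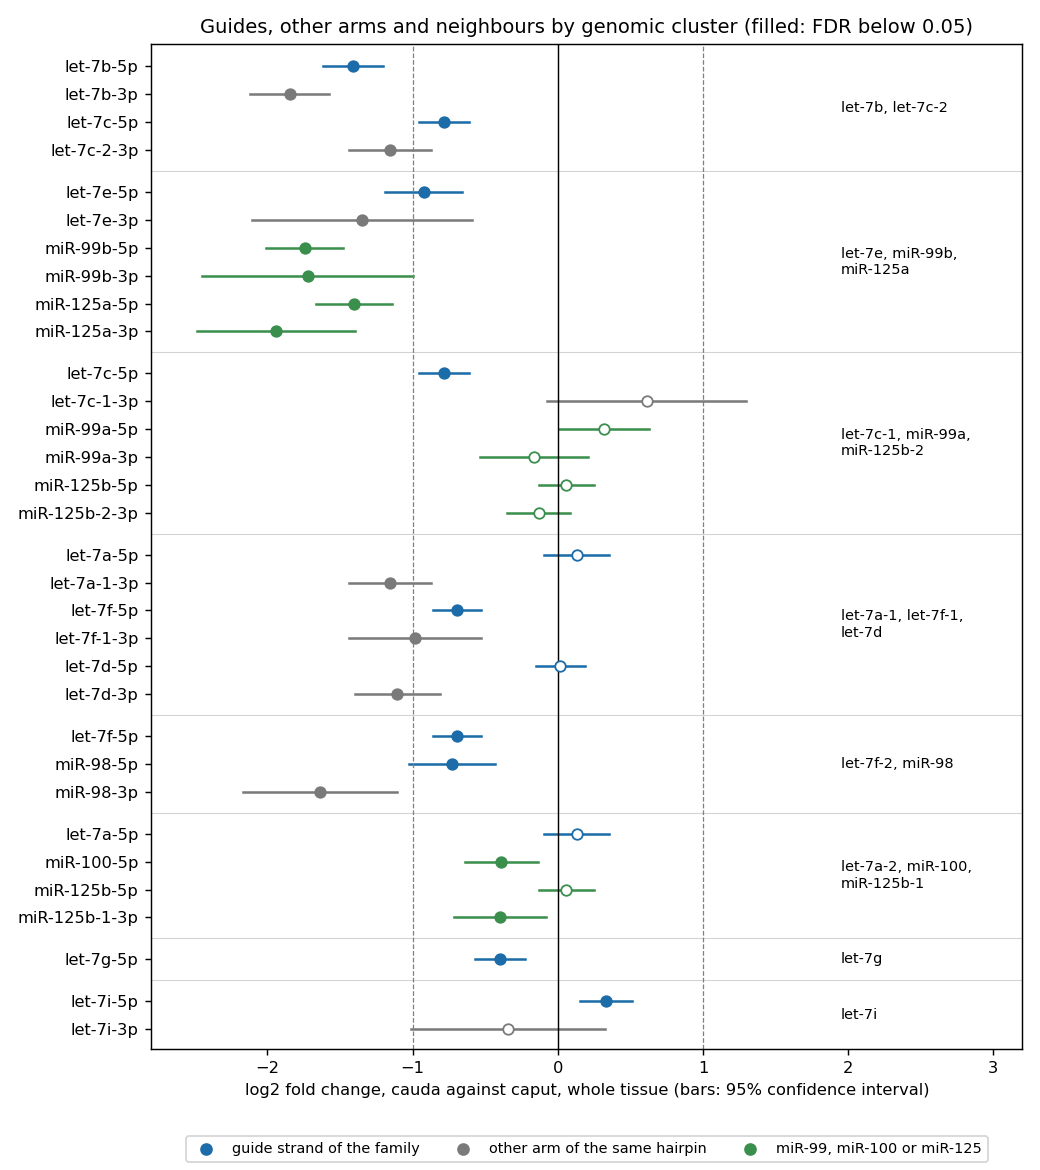
Change from caput to cauda in whole tissue (log2 fold change), with 95% confidence intervals, for guides (blue), other arms of the same hairpins (grey) and miR-99, miR-100 and miR-125 neighbours (green), grouped by genomic cluster; guides that come from 2 clusters are drawn in both, filled symbols have an FDR below 0.05 and dashed lines mark 2-fold. All 6 products of the let-7e cluster lie between -1.94 and -0.92, and the products drawn with let-7c-1 other than let-7c-5p lie between -0.16 and 0.61.

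The miRNAs whose levels followed let-7c-5p and let-7i-5p most closely were found among 185 others by the correlation of log2 CPM, centred within each preparation, over the 14 libraries, which share regions and pools. For let-7c-5p they were miR-467a-5p (r = 0.93), miR-340-5p (0.93), miR-872-3p (0.92), miR-9-5p (0.91) and miR-872-5p (0.91). For let-7i-5p they were miR-184-3p (0.89), miR-186-5p (0.88), miR-92a-3p (0.86), miR-101a-3p (0.85) and miR-101b-3p (0.82). The 2 lists have no name in common. Among the members themselves, let-7e-5p followed let-7c-5p most closely (r = 0.97) and let-7d-5p followed let-7i-5p most closely (r = 0.88).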

How the data were processed

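Small RNA of 14 libraries was sequenced. Per the paper's methods the authors screened and trimmed the reads, used genome build mm10 and mature miRBase sequences for alignment and counted known miRNAs, and the submitters' processing notes name CASAVA 1.8.2, Bowtie 1.1.1 and limma. The deposited values are expected counts for each mature miRNA, not normalized, with 2.95% to 4.58% of the values of a library not whole. The authors had 0.001 added to each epithelial value, which was removed here. How reads matching several miRNAs were divided is not given in the sources used here. For the tests, counts were rounded, and no library total changed by more than 0.00337%. Library sizes were adjusted by TMM (edgeR 4.0.16) over miRNAs with a mean count above 10 in a region, and CPM are on that scale unless library shares are named. TMM CPM were scaled within each preparation, and the contrasts between preparations were scaled jointly.

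Tests were limma-voom (limma 3.58.1, R 4.3.3) over all miRNAs above that mean in a compared region, or in both preparations, with Benjamini-Hochberg adjustment over them. A miRNA was called with an FDR below 0.05 and a 2-fold change, and rose or fell is written for an FDR below 0.05. The scripts were tested on simulated data. Alternatives were edgeR's quasi-likelihood and DESeq2's Wald test (DESeq2 1.42.0), other scalings and filters, a replicate block, names matched with an added letter and each library left out. Depth ranged from 89039 to 2135501 counts, and 0 columns were left out. The members, the passengers, neighbours and markers were chosen with earlier results of these data known. Named miRNAs are the 9 members, their passengers and family names, the listed neighbours and others with the same seed. Also named are the 5 miRNAs outside the members most alike to let-7c-5p and the 5 most alike to let-7i-5p.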

Additional observations from a re-analysis of the deposited data

Results flagged for a closer look

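For 3 members the change from caput to cauda differed between whole tissue and epithelial cells by a direct test of the difference (limma, FDR over 194 miRNAs). That is 3 of 9 members, where 32.0% of all miRNAs tested passed, with a median difference of 0.38 over all of them. let-7a-5p had a difference of -0.47 on the log2 scale (SE 0.15, FDR 0.0273), with changes of 0.13 in tissue and -0.39 in epithelial cells. let-7c-5p had a difference of -0.47 (SE 0.12, FDR 0.0110), with changes of -0.78 and -1.30. let-7f-5p had a difference of 0.54 (SE 0.13, FDR 0.00772), with changes of -0.70 and -0.20. Without caput epithelial replicate 1 or 2 only 1 of the 3 remained below the FDR limit. let-7a-5p was also lost without caput tissue replicate 3 or cauda tissue replicate 1 or 2, with values of -0.88 to -0.41 over the libraries left out. let-7f-5p was also lost without corpus tissue replicate 2 or cauda epithelial replicate 1 or 2, with values of 0.13 to 0.68. The let-7f-5p call was also lost under every other scaling (0.25 to 0.38), and that of let-7a-5p when the filter on low counts was lowered to 1 count (FDR 0.065).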

How the results depend on the processing

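Counts of members called changed as follows under other scalings and with the FDR alone, each with the share of all miRNAs called under that setting. With the FDR alone they were 7 (59.3%), 5 (54.3%) and 7 (79.2%) in whole tissue (caput to corpus, corpus to cauda, caput to cauda), 3 (19.0%), 3 (13.5%) and 4 (39.4%) in epithelial cells, and 6 (60.3%), 6 (47.9%) and 5 (61.9%) between preparations (caput, corpus, cauda). With library totals they were 2 (33.2%) from caput to corpus in tissue, 2 (26.9%) from caput to cauda in epithelial cells, 3 (34.5%), 2 (28.4%) and 1 (42.8%) between preparations, and 2 (23.2%) for the difference between preparations. Between preparations, DESeq2's size factors gave 1 (35.1%) for caput and 2 (28.9%) for corpus. TMM over all rows of the table (chosen after seeing the data) gave 1 (35.1%) for caput and 2 (20.6%) for the difference. Normalization without the members gave 4 (27.8%) from caput to cauda in epithelial cells, 3 (36.6%) for caput, 2 (28.4%) for corpus and 2 (20.1%) for the difference. With all miRNAs of at least 1 count the difference had 2 (9.19%). Leaving out each library gave 0 to 1 called members from corpus to cauda in epithelial cells, 1 to 2 between preparations in each region, and 1 to 3 for the difference between preparations. The shares of all miRNAs called were then 2.09% to 13.8%, 32.5% to 37.6% for caput, 19.5% to 35.2% for corpus, 31.6% to 40.7% for cauda and 16.1% to 33.0%. The libraries behind these ranges were caput epithelial replicate 2 and both corpus epithelial libraries for the first, caput and corpus tissue replicate 2 and caput epithelial replicate 1 for caput, corpus tissue replicate 1 for corpus, cauda tissue replicate 1 for cauda, and both caput epithelial libraries for the difference. The cause was not tested.

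Directions turned for small changes. let-7f-5p from caput to corpus in tissue was 0.0816 with library totals. let-7a-5p from caput to corpus in epithelial cells was 0.0642 with size factors, 0.126 with library totals, 0.0332 with only those 2 regions fitted and -0.13 to 0.10 with a library left out. let-7i-5p from caput to cauda in epithelial cells was -0.0099 with TMM over all rows and -0.046 with normalization without the members. With a library left out, let-7a-5p from corpus to cauda in tissue ranged from -0.0435 to 0.13, let-7c-5p there from -0.17 to 0.0305, and let-7g-5p from caput to cauda in epithelial cells from -0.47 to 0.041.

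The share of all called miRNAs that were higher also moved with scaling. In whole tissue it was 47.0% from caput to corpus and 68.5% with library totals, and 52.4% and 63.9% from caput to cauda. In epithelial cells it was 52.0% from caput to corpus (37.5% to 66.7% under other scalings) and 53.6% from caput to cauda (40.0% to 67.2%). Between preparations it was 41.7% for caput (up to 61.2%), 54.5% for cauda (41.1% to 66.3%) and 79.0% for the difference (56.1% to 66.7%).

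Replicate numbers come from the sample titles only. The deviations of same-numbered libraries from their region means correlated between -0.24 and 0.28 over all pairs. With 2 libraries in a region their deviations mirror each other, so both epithelial replicates gave the same values (0.198, -0.0121 and -0.0138). Pairs with different numbers were not compared. The 3 caput and cauda pairs of tissue were positive (0.11, 0.18 and 0.28), while the pairs with corpus tissue were between -0.24 and 0.0046. With a replicate block the count of members called was 1 from caput to cauda in tissue and 3 in epithelial cells, and the block changed no count of called members and, from caput to cauda, took no member across the FDR limit in either preparation. By the FDR alone it lost let-7i-5p from corpus to cauda in epithelial cells and let-7d-5p and let-7g-5p between preparations in the corpus. Depth limits the corpus epithelial libraries, where miR-98-5p had 92 and 144 counts. edgeR and DESeq2 gave counts of called members within 1.5 times those of limma in all comparisons.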
